A study of Mus musculus with 2 samples.

Results

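The genes examined here carry the synthesis of cholesterol from acetyl-CoA and its control by SREBP2. They are 32 genes, chosen by function: 20 enzymes of the route or its supply, 6 genes of the SREBP2 sensor and protease system, and 6 genes of lipoprotein uptake, sterol transport and the cholesteryl ester pool. Their probes were found through the RefSeq accession that the array assigns to each probe. All 32 had a probe well above background on both arrays, out of 12872 named genes that did, among 20656 named genes on the array.

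Messenger RNA was compared between macrophages of Capn6-Wt mice, with an intact calpain-6 gene, and of Capn6-Ko mice, which lack calpain-6, a member of the calpain family without protease activity. The macrophages were differentiated from femoral marrow of male mice in 10% serum with M-CSF, the growth factor for this lineage, at 50 ng/mL, and both groups were also given the inflammatory cytokine TNF-α at 10 ng/mL. The labels place the cells at day 3 in their description and at day 4 in their source, and state neither the deleted part of the gene nor the strain. Pools from 4 mice were used, with no statement of how many mice each held, and each group was 1 array. There was therefore no replicate, no test between genotypes was possible, and every value below describes these 2 RNA pools.

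Cells make cholesterol by condensing acetyl-CoA to HMG-CoA, reducing it to mevalonate, building isoprenoid diphosphates, joining them to squalene, and closing squalene to lanosterol, which is then trimmed to cholesterol. When sterol in the endoplasmic reticulum is scarce, the escort protein SCAP carries the precursor of the transcription factor SREBP2 to the Golgi, where a pair of proteases releases the active fragment, and INSIG proteins hold the complex back when sterol is plentiful. Most enzymes of the route, and receptors that bring in lipoproteins, are transcribed under SREBP2, so their mRNA levels usually move together with the sterol supply. Macrophages in addition take up modified lipoproteins, esterify the surplus cholesterol and hydrolyse the esters again.

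Messenger RNA of the pathway stood at nearly the same level in both pools. No member reached a log2 difference of 0.32 (a ratio of 5 to 4) in either direction. Of all named genes, 2.64% were at least that much higher in Capn6-Ko and 5.53% at least that much lower. Among named genes above the median level, where most members lie, only 0.684% were that much higher and 0.886% lower. A count of 0 members is therefore no result about the pathway. With arrays centred on their medians the shares of all named genes were 4.33% and 4.16%, and still no member reached the size. The median log2 difference of the 32 genes, Capn6-Ko minus Capn6-Wt, was -0.029, beside -0.0055 for all named genes. Members ran from -0.23 for Lss to 0.12 for Scap, with an SD over the 32 genes of 0.068, against 0.18 over all named genes and 0.10 over those above the median level. Here and below a difference is in log2 signal after each array was set relative to its 75th percentile. In such bulk RNA, fewer cells of a type and less RNA per cell cannot be told apart.

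At the smaller size of 1.1-fold, 2 of 32 members were lower, Lss and Lrp8, and 0 were higher. Of all named genes 15.1% were at least 1.1-fold lower and 12.4% at least 1.1-fold higher. Many of those genes are dim, and 22 of the 32 members lie above the median level of named genes. Among the 6436 genes above that level, 5.44% were at least 1.1-fold lower and 6.68% higher, and at the log2 size of 0.32 the shares were 0.886% and 0.684%. Centred on the medians, 9.91% of all named genes were at least 1.1-fold lower and 23.6% higher, and the shares of the brighter genes were 2.02% lower and 17.9% higher at 1.1-fold, and 0.668% and 1.43% at the larger size. Within the 22 brighter members, 1 was past 1.1-fold, Lss. The count of members past these sizes was close to the share among brighter genes, and is no result about the pathway.

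Signs were more often negative than positive, with 23 of 32 members below 0 beside 52.2% of all named genes, but 5 of 32 when the arrays were centred on their medians, which moved the median of all named genes to 0.059. Those medians are over all non-control spots, of which 51.7% and 52.8% were well above background, so they fall among dim spots. Relative to the median of all named genes, which no shared shift can move, the members' median lay at -0.023 with 22 of 32 members below it, and at 0.015 with 8 of 32 when dim probes were not filtered out. The signs given below for single genes and groups depend on the centring in the same way, except where stated.

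Spot error was the yardstick for single genes. The ± after a difference is the SD expected from the spread between spots of the same probe on one array, which covers spotting and scanning but not mice, culture, RNA extraction or labelling. Of the 32 members 27 (84.4%) lay within 1 such SD of 0 and 31 (96.9%) within 2, beside 61.4% and 88.1% of all named genes and 64.2% and 89.8% of the brighter ones. Lss was the 1 member past 2 SDs. With arrays centred on their medians 23 members lay within 1 SD and 29 within 2, and Mvk and Scap were past 2 SDs as well. After normexp, a background model fitted to the spots' median signals with an offset of 50 added, all 32 lay within 2. The offset draws log2 differences toward 0, most for dim probes. In both settings the SDs were those of the main processing, so the normexp count is not a separate reading of the error.

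**Figure D1:**
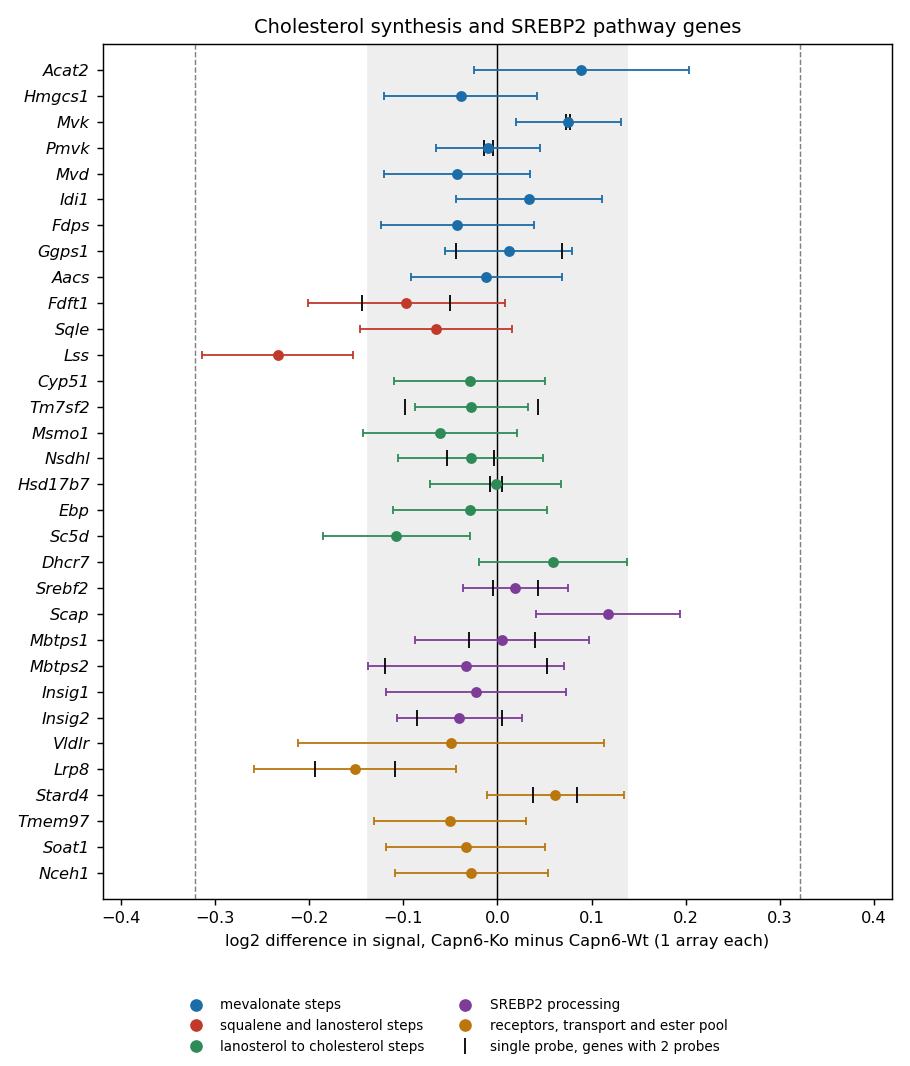
Log2 difference in signal, Capn6-Ko minus Capn6-Wt, for each of the 32 genes in pathway order, 1 array per group; bars are the spot-to-spot SD, black ticks the single probes of genes with 2 measured probes, the grey band 1.1-fold and the dashed lines a log2 size of 0.32 either way. Of the 32 points 30 lie inside the band, Lss at -0.23 and Lrp8 at -0.15 lie to its left, and none reaches a dashed line.

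Promoter windows from RefSeq (GRCm38.p6, 250 bases before to 50 after the start) were held for 28 of the 32 genes, in 37 windows. Letters were searched on both strands: the sterol regulatory element TCACNCCAC, to which SREBP binds, the CCAAT box CCAAT, the site of the SREBP partner NF-Y, and the E-box CACGTG. The first was in 1 of the 28 genes, Hmgcs1, and in 1.44% of the 27025 genes of the table. A CCAAT box was in 22 of the 28 (78.6%) and in 41.1% of all genes, and an E-box in 6 (21.4%) and in 8.09%. Genes have unequal numbers of windows, a match is not a measured site, and no match says only that these letters are not in the window. The windows of Hmgcs1, the member with the sterol regulatory element, of Lss, the lowest member, and of Scap, the highest, are shown 5′ to 3′ on the forward strand of each chromosome, which is the strand of all 3 genes, with the matches in capitals (ATTGG is CCAAT on the opposite strand).
Hmgcs1, chr13:119690101-119690400: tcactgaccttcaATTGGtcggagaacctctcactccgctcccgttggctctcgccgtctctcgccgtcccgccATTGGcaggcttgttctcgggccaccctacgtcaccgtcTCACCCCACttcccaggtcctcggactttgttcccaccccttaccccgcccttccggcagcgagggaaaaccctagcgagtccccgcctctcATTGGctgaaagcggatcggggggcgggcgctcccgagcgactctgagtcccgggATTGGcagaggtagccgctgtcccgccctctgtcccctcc
Lss, chr10:76531355-76531654: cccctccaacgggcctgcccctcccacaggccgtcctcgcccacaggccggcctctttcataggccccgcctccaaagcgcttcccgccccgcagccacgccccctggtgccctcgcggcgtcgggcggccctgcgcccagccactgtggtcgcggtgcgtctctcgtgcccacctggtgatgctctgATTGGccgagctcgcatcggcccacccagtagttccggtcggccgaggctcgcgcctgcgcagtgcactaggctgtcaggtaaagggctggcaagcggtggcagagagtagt
Scap, chr9:110333038-110333337: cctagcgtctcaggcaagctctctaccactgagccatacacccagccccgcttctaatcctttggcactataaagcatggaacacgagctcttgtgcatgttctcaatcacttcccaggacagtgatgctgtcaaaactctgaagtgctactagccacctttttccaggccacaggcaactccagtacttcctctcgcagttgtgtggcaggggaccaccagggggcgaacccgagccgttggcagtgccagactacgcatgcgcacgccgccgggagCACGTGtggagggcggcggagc

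The sterol regulatory element of Hmgcs1 starts at base 114 of its window (chr13:119690214-119690222) and lies among 4 CCAAT boxes. The Lss window has 1 CCAAT box and the Scap window shown 1 E-box and no CCAAT box. A further Scap window, chr9:110333106-110333405, is not shown and holds the same E-box and no CCAAT box. The mRNA of Hmgcs1, whose window holds matches to both motifs tied to SREBP2, differed by -0.039 between the pools.

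Supply and the mevalonate steps came first in the route. Acat2, the cytosolic thiolase that joins acetyl-CoA units, had a signal of 256 in Capn6-Wt against 268 in Capn6-Ko, a difference of 0.089 ± 0.11. Aacs, which activates acetoacetate for lipid synthesis, had 3495 and 3423 (-0.012 ± 0.080). Hmgcs1, the cytosolic HMG-CoA synthase, had 19199 and 18451 (-0.039 ± 0.082). These 3 values were within the spot error, though Acat2 was at 0.15, past it and past 1.1-fold, with arrays centred on their medians.

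Mevalonate kinase, encoded by Mvk, was read by 2 probes, one with signals of 6736 in Capn6-Wt against 7019 in Capn6-Ko and the other with 1335 and 1387. The probes gave 0.078 and 0.073 and the gene 0.075 ± 0.056, the 1 value of these steps larger than its spot SD, and 0.14 with arrays centred on their medians. Pmvk, the next kinase, had signals of 4058 and 3966 on one probe and 7984 and 7857 on the other, and stood at -0.0099 ± 0.056. Mvd, the decarboxylase that makes isopentenyl diphosphate, had 4293 and 4115 (-0.043 ± 0.078).

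Idi1, the isomerase that balances the 2 isoprenoid building blocks, had signals of 6585 and 6654 (0.033 ± 0.078). Fdps, which makes farnesyl diphosphate, the last precursor common to sterols and other isoprenoids, had 22712 and 21774 (-0.043 ± 0.082). Ggps1 leads away from sterols to geranylgeranyl diphosphate, used for protein prenylation. Its 2 probes gave -0.045 (382 and 366) and 0.068 (882 and 913), on either side of 0, and the gene 0.012 ± 0.068. Of the 9 genes of these steps 4 were above 0 and 5 below, and all 9 were above with arrays centred on their medians. Their median was -0.0099 and their range -0.043 to 0.089.

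The 3 genes from farnesyl diphosphate to lanosterol were all below 0, with a median of -0.097, which was -0.032 with arrays centred on their medians. Fdft1 encodes squalene synthase, the first enzyme committed to sterols. Its bright probe had signals of 2663 in Capn6-Wt against 2539 in Capn6-Ko and its dim probe 68.1 and 60.9, giving -0.050 and -0.14, and -0.097 ± 0.10 for the gene. Sqle, squalene epoxidase, a flux-controlling enzyme, had 10952 and 10333 (-0.066 ± 0.081, and -0.00094 with arrays centred on their medians). Both values were smaller than their spot SD.

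Lss encodes lanosterol synthase, which folds the epoxide of squalene into the ring system of sterols. The Capn6-Wt array read it at 1634 and the Capn6-Ko array at 1373, a difference of -0.23 ± 0.080, or 1.18-fold lower. Its size was 2.91 spot SDs, and 13.6% of all named genes and 3.23% of the brighter ones lay further from 0. The value rests on 1 probe with 1 spot per array. Its size was -0.13 when the spots' median signals were corrected by the normexp model, which takes it under 1.1-fold, and -0.17 with arrays centred on their medians.

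**Figure D2:**
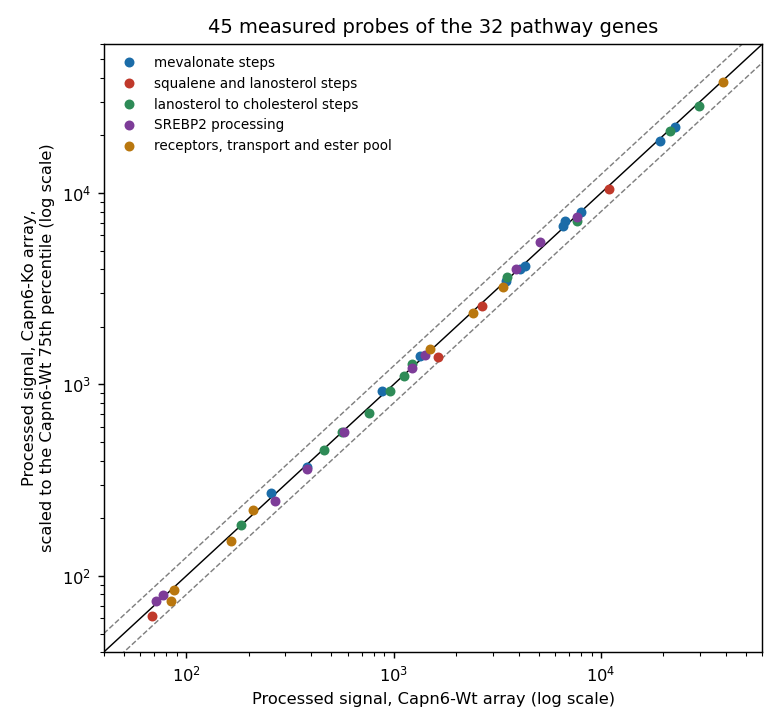
Processed signal of the 45 measured probes of the 32 genes on the Capn6-Wt array (x axis) and on the Capn6-Ko array scaled to the same 75th percentile (y axis), both on log scales; the solid line is equality and the dashed lines a ratio of 5 to 4 (log2 size 0.32). Every probe lies between the dashed lines, from a Capn6-Wt signal of 68.1 to one of 38896.

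Trimming of lanosterol to cholesterol takes a further chain of enzymes, of which 8 were measured, 7 below 0 and 1 above (1 and 7 with arrays centred on their medians), with a median of -0.029. Cyp51, the demethylase that acts first on lanosterol, had signals of 1125 in Capn6-Wt against 1088 in Capn6-Ko (-0.030 ± 0.081). Tm7sf2, a sterol reductase, was read by 2 probes that differed in sign, 0.043 (3531 and 3591) and -0.099 (757 and 698), and the gene stood at -0.028 ± 0.060. Msmo1, the methylsterol oxidase, had 29770.3 and 28174 (-0.061 ± 0.082).

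Nsdhl, the dehydrogenase that removes the oxidised methyl carbon, had signals of 962 and 915 on its brighter probe and 185 and 182 on the other, and stood at -0.029 ± 0.077. Hsd17b7, the ketoreductase of the same demethylation complex, was the closest of all members to 0, at -0.0017 ± 0.069, with signals of 565 and 559.9 on one probe and 460 and 452 on the other. Ebp, the sterol isomerase, had 21506 and 20814 (-0.029 ± 0.082). These 3 differences were all smaller than the spot error.

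Sc5d, the desaturase that makes 7-dehydrocholesterol, was the lowest of this group. Its signal was 7649 in Capn6-Wt against 7012 in Capn6-Ko, a difference of -0.11 ± 0.079, or 1.08-fold lower. Dhcr7, the reductase that turns 7-dehydrocholesterol into cholesterol, had signals of 1222 and 1256 and was the 1 member of the group above 0, at 0.059 ± 0.079. After normexp on the median signals Dhcr7 was at -0.041, so its side of 0 depended on the processing. Over all 20 enzymes 15 were below 0 and 5 above (4 and 16 with arrays centred on their medians), the median was -0.029, and 17 lay within 1 spot SD.

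The control system of SREBP2 was also near level. Srebf2, which encodes the transcription factor, was read by 2 probes with signals of 1226 and 1207 on one and 3893 and 3960 on the other, and stood at 0.019 ± 0.056. Scap, the sterol-sensing escort, was the highest of all 32 members. Its signal was 5086 in Capn6-Wt against 5449 in Capn6-Ko, a difference of 0.12 ± 0.076, or 1.08-fold higher, from 1 probe, and 0.18 with arrays centred on their medians, which takes it past 1.1-fold. Among all named genes 33.0% lay further from 0 than Scap, and among the brighter ones 17.2%.

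Of the proteases that cut SREBP2 in the Golgi, Mbtps1 (the site-1 protease) had signals of 7641 and 7389 on its bright probe, -0.030, and 77.2 and 78.4 on its dim probe, 0.040. The gene stood at 0.0048 ± 0.092. Mbtps2 (the site-2 protease) had probes at -0.12 (268 and 243) and 0.052 (71.7 and 73.4), the widest gap between probes of a member, 0.17, and a mean of -0.034 ± 0.10. Both proteases thus had probes on either side of 0.

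Insig1 and Insig2 encode the proteins that retain SCAP when sterol is plentiful, and Insig1 is itself a sensitive SREBP target. Insig1 had a signal of 576 in Capn6-Wt against 559.5 in Capn6-Ko (-0.023 ± 0.096). Insig2 had 1417 and 1404 on one probe and 384 and 357 on the other, and stood at -0.040 ± 0.066. Of the 6 genes of this system 3 were above 0 and 3 below, and all 6 above with arrays centred on their medians; the median was -0.0090.

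The lipoprotein receptors among the members, Vldlr and Lrp8, were read with low signals, where the spot error is wider. Not all receptors of the family were dim. Lrp1, from the related list of the LDL receptor family, had signals of 29199 in Capn6-Wt against 29729 in Capn6-Ko (0.044 ± 0.082). Vldlr encodes the VLDL receptor, and its 1 measured probe had signals of 87.5 in Capn6-Wt against 83.5 in Capn6-Ko (-0.049 ± 0.16). A second Vldlr probe was not well above background on either array, with signals of 13.5 and 5.70, so no fold is given for it. Lrp8 encodes the related receptor for apolipoprotein E and reelin. Its probes had signals of 165 and 151, and of 84.4 and 72.9, both lower in Capn6-Ko, by -0.11 and -0.19. The gene stood at -0.15 ± 0.11, or 1.11-fold lower, and it was under 1.1-fold when only the brighter probe was used, after quantile normalization, after normexp and with arrays centred on their medians.

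Sterol transport and the ester pool were near level. Stard4, a carrier that moves cholesterol between membranes, had signals of 1498 and 1519 on one probe and 209.5 and 219 on the other, and stood at 0.061 ± 0.073. Tmem97, a sterol-responsive membrane protein, had 3358 and 3202 (-0.051 ± 0.081). Soat1, which esterifies cholesterol in macrophages, had 2426 and 2340 (-0.034 ± 0.084). Nceh1, which hydrolyses the esters, had 38896 and 37676 (-0.028 ± 0.082). Soat1 and Nceh1 thus both differed by less than their spot error, though Soat1 was at -0.12, past it, after normexp. Of the 6 genes of uptake, transport and the ester pool 5 were below 0, and 1 with arrays centred on their medians; the median was -0.041.

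Probes of the same gene gave a further reading of the error. Of the 32 members 13 had 2 measured probes, with a median gap of 0.070 between them, and 7 of the 13 had probes on opposite sides of 0. No gap reached a log2 size of 0.32.

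**Figure D3:**
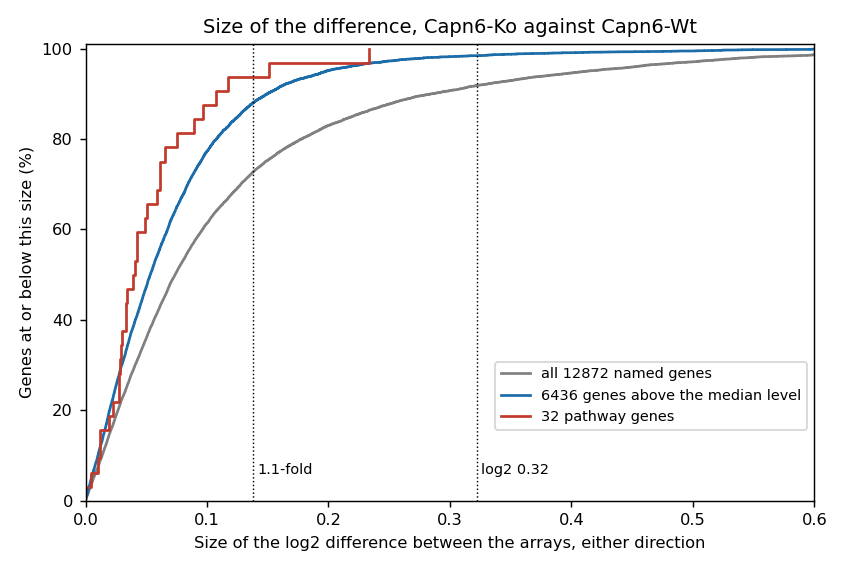
Share of genes (y axis, %) whose log2 difference between the arrays, in either direction, is at or below the size on the x axis, for the 32 pathway genes, the 6436 named genes above the median level and all 12872 named genes; dotted lines mark 1.1-fold and a log2 size of 0.32. At 1.1-fold the line of the pathway genes stands at 93.8%, that of the brighter genes at 87.9% and that of all named genes at 72.5%.

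Genes around the route were read from 6 further lists with 73 genes, of which 70 were measured, 35 above 0 and 35 below with a median of -0.0015. With arrays centred on their medians 53 of the 70 were above 0. At the log2 size of 0.32, 1 was higher and 2 were lower, beside 2.64% and 5.53% of all named genes and 0.684% and 0.886% of the brighter ones. Of the 70, 95.7% were short of that size, between 91.8% of all named genes and 98.4% of the brighter ones. Counts this small do not set the lists apart. Me1, a malic enzyme that supplies NADPH, stood at -0.41 ± 0.064 in the acetyl-CoA list. Its 3 probes had signals of 774 and 596, 373 and 279, and 215 and 153, all lower in Capn6-Ko, and the gene was at -0.32 after normexp, just short of the size. Dab2, an endocytic adaptor of the LDL receptor family, had a signal of 1076 in Capn6-Wt against 1348 in Capn6-Ko, 0.34 ± 0.079, from 1 probe. Ch25h makes 25-hydroxycholesterol, an oxysterol that holds back SREBP processing and is induced by interferon in macrophages; it had signals of 86.6 and 62.5, -0.45 ± 0.17, from 1 probe, and -0.16 after normexp.

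No list around the route stood far from 0 as a whole. The medians were 0.0063 for 7 genes of acetyl-CoA supply, 0.0039 for 14 of non-sterol isoprenoid use and -0.0074 for 16 of sterol-regulated degradation and SREBP control. They were -0.023 for 13 of the LDL receptor family and its partners, -0.018 for 14 of intracellular sterol transport and hydrolysis, and -0.011 for 6 of oxysterol synthesis. Acat1, the mitochondrial thiolase, was highest in the first list (0.22 ± 0.093, and 0.11 after normexp). In the isoprenoid list the ends were Fntb, the β subunit of the enzyme that attaches farnesyl groups (0.29 ± 0.23, and -0.38 with a second probe that was not well above background), and Pggt1b, a subunit of the enzyme that attaches geranylgeranyl groups (-0.17 ± 0.15).

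Among the SREBP regulators Erlin2, part of an endoplasmic reticulum complex for sterol-regulated degradation, was lowest (-0.21 ± 0.079; 1333 in Capn6-Wt and 1137 in Capn6-Ko), and Pgrmc2, a membrane heme-binding protein, was highest (0.19 ± 0.10). Srebf1, which encodes the related factor SREBP1 and was singled out after its value was seen, stood at 0.19 ± 0.13. In the LDL receptor family Lrp12 was lowest (-0.13 ± 0.078), and 2 of the 15 genes, Lrp1b and Lrp2, were not well above background on both arrays. Gramd1b and Gramd1c, which carry cholesterol from the plasma membrane, were the ends of the transport list (0.16 ± 0.079 and -0.13 ± 0.14), and Cyp46a1 was the highest oxysterol gene (0.19 ± 0.16).

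**Figure D4:**
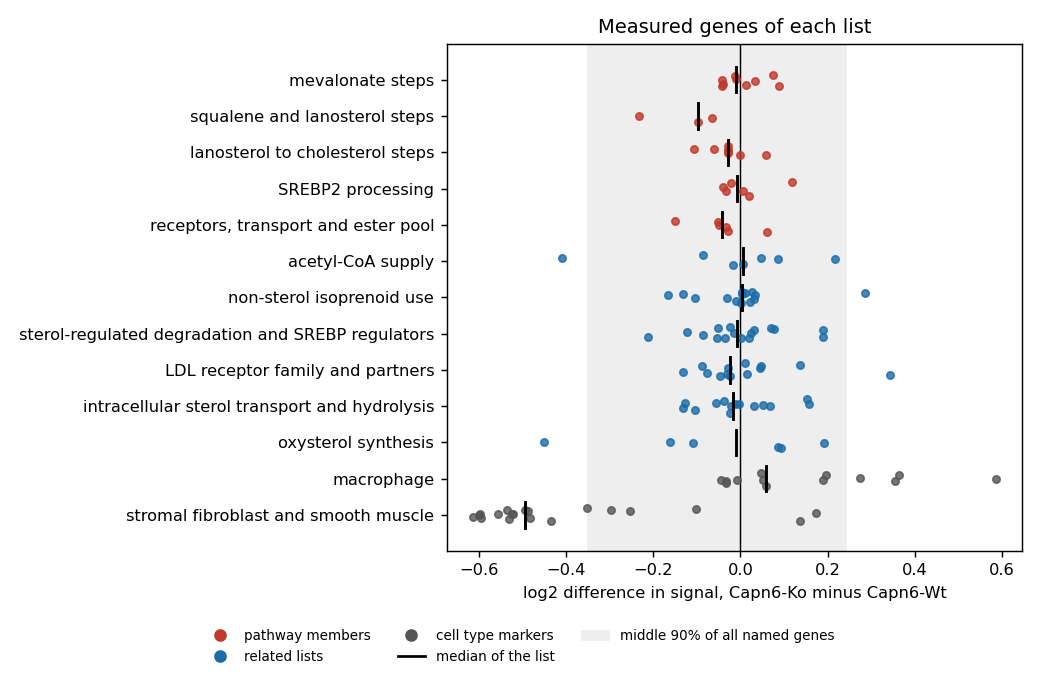
Log2 difference, Capn6-Ko minus Capn6-Wt, of each measured gene (points, spread vertically at random) by list, with the median of each list as a black line; red marks the 32 pathway genes, blue the related lists and grey the macrophage and stromal markers, and the grey band holds the middle 90% of all named genes (-0.35 to 0.24). All red points lie inside the band, while most stromal markers lie to the left of it around their median of -0.50.

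Both arrays had about the same quality, with 51.7% and 52.8% of spots well above background, a 75th percentile of signal of 377 and 372 and no saturated spot. Capn6 itself was not well above background on either array (3.93 in Capn6-Wt and 8.65 in Capn6-Ko), so its single probe does not check the labels. Macrophage markers were present, 13 of 14 measured, 9 above 0 and 4 below (13 and 0 with arrays centred on their medians) with a median of 0.059, from Mrc1 at -0.045 to Cx3cr1 at 0.59, and a summed signal of 799570 in Capn6-Wt against 807376 in Capn6-Ko. No probe for Cd68 was matched.

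Stromal fibroblast and smooth muscle markers were lower in Capn6-Ko in 17 of 19 measured genes of 20, with a median of -0.50. They ran from Tagln at -0.61 ± 0.080 to Thy1 at 0.17 ± 0.33, a dim gene with signals of 24.5 and 27.3. Their summed signal was 59247 in Capn6-Wt against 40394 in Capn6-Ko. The count was also 17 of 19 with arrays centred on their medians, with a median of -0.43. Lum of that list was not well above background on both arrays. The cholesterol pathway is active in stromal cells as well as in macrophages, and the part of the stromal difference in the pathway's values was not tested. Of 5 hepatocyte markers, among them Alb and Apob, 0 passed the background flag on both arrays. Of adipocyte markers 1 of 5 was measured, Cfd at 0.34 ± 0.33. The defining markers Adipoq and Plin1 were not well above background. Of neutrophil markers 7 of 8 were measured, with a median of -0.016 (Ngp at -0.13 to Ltf at 0.33). Of T and NK cell markers 3 of 6 were measured, without Cd3d, Cd3g and Ncr1 (median -0.024, from Cd3e at -0.11 to Lck at -0.024). Of erythroid markers 2 of 5 were measured, Hbb-bt at -0.40 ± 0.30 (signals of 36.1 and 27.0) and Hba-a1 at -0.23 ± 0.16. The signs of the neutrophil and T and NK cell medians turn with arrays centred on their medians.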

How the data were processed

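Spot intensity on a linear scale, per the file headers, was produced by the submitters' scanner software, Agilent Feature Extraction 10.10.1.1; the authors deposited these intensity values. The processed signal used here is background-subtracted within each array and not scaled between arrays. The array design is annotated on mm9, and both arrays share a slide and a scan, per the file headers. The authors' value table is the same intensity times 1 constant per array (2.39 and 2.42, with column medians of 53.0 and 50.7), and it gives no direction. Its 75th percentiles over the non-control spots are 900.67 and 900.70. The constants thus bring both arrays to nearly the same 75th percentile, and how they were chosen is not stated there.

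Control spots and 161 and 136 spots flagged as outliers were left out. Log2 signals were set relative to the 75th percentile of each array, spots of a probe were averaged, and a probe counted as measured if more than 0.5 of its spots passed the scanner's background flag on each array. A gene is the mean of its measured probes, named by unversioned RefSeq accession in a table of GRCm38.p6. The spot SD came from 263 probes with at least 5 spots on each array (10 by design), grouped by level into 8 bins. With 1 array per group there was no test. The number of arrays limits the precision.

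The members and lists were chosen with earlier results of these data known. Named genes are all members, the ends of each other list, and any gene of a related list past a log2 size of 0.32. Srebf1 and Lrp1 were named in addition, after their values were seen. Not every step of the route is in the list; the others were not analysed here. A further marker list is not reported here. The functions were tested on simulated data. Python 3.11.15 with numpy 2.4.6, pandas 2.3.3 and matplotlib 3.10.9 was used, and R 4.3.3 with limma 3.58.1 for normexp.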

Additional observations from a re-analysis of the deposited data

How the results depend on the processing

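Of 9 other settings run, 7 changed any member value, and in these 9 of 220 values moved by more than their spot SD. Lss, Lrp8, Fdft1, Sc5d and Sqle were below 0 in each setting that gave them a value, and Scap, Acat2, Mvk, Idi1, Stard4 and Srebf2 above. The other 21 took both signs. Lrp8 and Acat2 had no value with only probes above the median level. Members at least 1.1-fold lower numbered 1 after quantile normalization, with only probes above the median level, with the brightest probe of a gene and with the median centre, and 0 after normexp. With the median centre 3 (Acat2, Mvk and Scap) were at least 1.1-fold higher and 5 below 0, and named genes past a log2 size of 0.32 were 558 higher and 535 lower, in place of 340 and 712. With no filter on dim probes 1 member, Vldlr (-0.64), was lower by at least 0.32, through its probe at background. The value table, which differs by a constant per array, and keeping outlier spots gave the same member values. Normexp was run on the median signals, a choice made after seeing the data. The planned run on mean signals could not be done, as the scanner output has no mean signal column. The cause of the other shifts was not tested. No paired analysis was possible because each group has 1 array.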
